A study of Mus musculus with 25 samples.

Results

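The collagen gene family was taken as every gene whose mouse symbol reads Col, a type number, the letter a and a chain number. The rule found 44 of the 54752 gene IDs in the count files. These are 11 fibrillar collagens, 8 collagens of basement membranes (6 type IV chains, *Col15a1* and *Col18a1*), 6 type VI chains, 9 FACIT collagens (fibril-associated collagens with interrupted triple helices) and 10 others. RNA-seq had been performed on epididymal (eWAT) and inguinal (iWAT) white adipose tissue of male C57BL/6N mice. Wild type mice on normal chow diet (ND) gave 4 eWAT and 3 iWAT libraries, wild type mice on high fat diet (HFD, 60% of calories from fat) gave 5 and 5, and *Acod1*-/- mice on HFD gave 5 and 3. HFD started at 5 weeks of age and lasted 16 weeks, while 2 of the 3 iWAT *Acod1*-/- libraries are labelled 17 and 18 weeks. *Acod1* encodes the enzyme that makes itaconate, its deletion was constitutive, and ND-fed *Acod1*-/- mice were not analysed here, so genotypes are compared under HFD only. The knockout line came from the Jackson Laboratory and was bred in house. Labels number the libraries without tying them to animals, so p-values measure the spread between these samples.

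Collagens are secreted proteins of 3 chains wound into a triple helix. Fibrillar types I, III and V form the cables of the interstitial matrix, type IV forms the sheet of the basement membrane that wraps each adipocyte and vessel, and type VI forms beaded filaments between these layers. Fibroblasts and adipocyte progenitors are the main makers of fibrillar collagen in fat, whereas adipocytes and endothelial cells also make type IV chains.

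Counted reads ranged from 31.41 to 52.34 M over the libraries, and no library of a group was a copy of another. The first digits of the column headers split the libraries into 14 and 11, called sequencing series 1 and series 2 here. What these digits stand for is not stated, so the name is an assumption. Series 2 holds every ND library and 1 library of each HFD group, namely replicate 5 of the eWAT groups and of iWAT wild type, and replicate 3 of iWAT *Acod1*-/-. *Acod1* had at most 9 reads in any library, which is too few to check the label of genotype. Adipocyte markers (7 genes) summed to 6271 to 13820 FPKM over the 25 libraries, so markers of the labelled tissue were present in each. *Acod1*-/- replicate 5 in eWAT and *Acod1*-/- replicate 3 in iWAT stood apart from their groups for many collagens, and results that rest on them are given with and without them. In tissue of this kind, fewer cells of a type and less RNA per cell cannot be told apart.

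Levels of different genes are compared in FPKM, reads scaled to cDNA length and to the reads counted on genes. In ND-fed eWAT the highest mean FPKM of the family was that of *Col4a1* (172 ± 27.3, SD, n = 4), followed by its partner chain *Col4a2* (136 ± 30.8), the fibrillar *Col5a3* (101 ± 13.5), *Col15a1* (84.4 ± 7.24) and *Col6a1* (78.8 ± 25.3). The ranges of mean ± SD of neighbours in that order overlapped. In HFD-fed wild type eWAT *Col3a1*, the chain of type III collagen, came first in FPKM (190.1 ± 78.7, n = 5), and it was behind all of the above in ND-fed eWAT (72.0 ± 12.6). In HFD-fed *Acod1*-/- eWAT *Col4a1* was again first (119.2 ± 52.3, n = 5) and *Col3a1* lower (80.4 ± 42.8). In iWAT *Col4a1* led on ND (94.7 ± 24.0, n = 3) and *Col3a1* on HFD, at 179.7 ± 52.7 (n = 5) in wild type and 156 ± 32.1 (n = 3) in *Acod1*-/- mice. The SDs of first and second place overlapped in all 6 groups.

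Summed FPKM of the 11 fibrillar collagens in eWAT was 246 to 343 on ND, 331 to 691 in HFD-fed wild type and 180.4 to 429 in HFD-fed *Acod1*-/- mice. The 8 basement membrane collagens summed to 375 to 533, 281 to 446 and 235 to 542 in the same groups. Dividing one sum by the other within each library gave 0.613 to 0.725 on ND, 0.998 to 2.46 in HFD-fed wild type and 0.706 to 0.801 in HFD-fed *Acod1*-/- mice. Every HFD-fed wild type library of eWAT thus had a higher ratio than every other eWAT library. *Acod1*-/- replicate 5, whose sums were both the highest of its group, had a ratio of 0.791, inside the range of the other 4. In iWAT the ratio was 0.808 to 1.02 on ND, 0.966 to 1.36 in HFD-fed wild type and 0.853 to 1.81 in HFD-fed *Acod1*-/- mice, so its groups overlapped. These ratios are a description of the classes and were not tested.

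**Figure D1:**
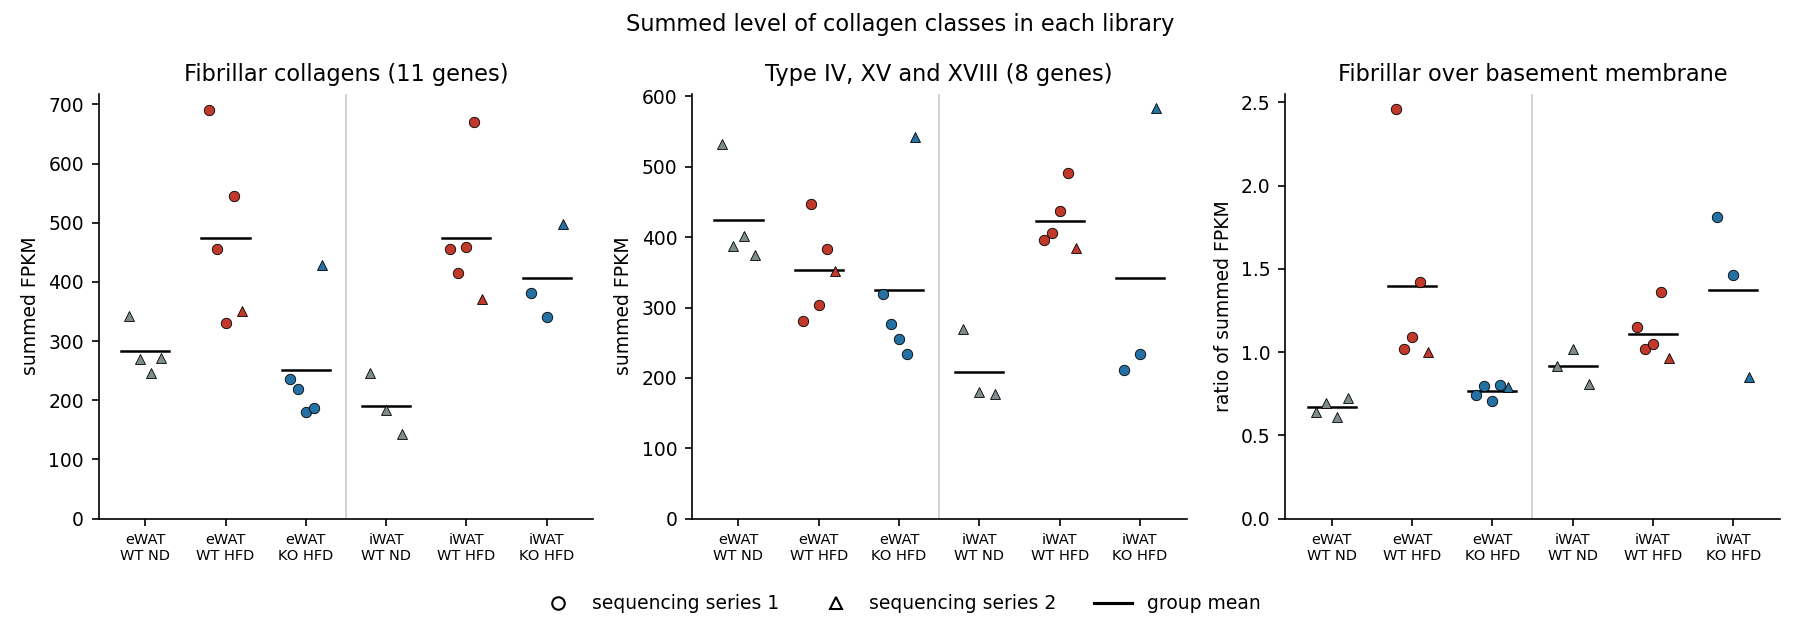
Summed FPKM of the 11 fibrillar collagens (left) and of the 8 basement membrane collagens (middle), and the ratio of the 2 sums (right), for each of the 25 libraries by group. Circles are libraries of sequencing series 1, triangles those of series 2, and the line is the group mean. The ratio lies at 0.998 or above in HFD-fed wild type eWAT and at 0.801 or below in the other 2 eWAT groups.

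Of the 44 members, 28 reached a mean of 1 CPM (counts scaled to library size) in both depots and were tested in both, *Col4a6* and *Col8a2* were tested in eWAT only, and *Col6a4*, *Col11a2* and *Col13a1* in iWAT only. The other 11 (*Col2a1*, *Col9a1*, *Col9a2*, *Col9a3*, *Col10a1*, *Col11a1*, *Col19a1*, *Col22a1*, *Col24a1*, *Col25a1* and *Col26a1*) never exceeded 0.672 FPKM in any library. Several of these are collagens of cartilage, such as types II, IX, X and XI. Since strand use in counting is not given in the sources used here, reads of members that overlap a gene on the other strand, as *Col10a1* does with *Nt5dc1*, cannot be assigned with certainty.

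The first question was how HFD moved the family in wild type eWAT. Most fibrillar (4 of 7), type VI (3 of 5) and FACIT (3 of 4) chains tested rose with HFD, and of 8 basement membrane collagens none rose. Of 30 members tested, 11 rose and 8 fell by edgeR's quasi-likelihood test at an adjusted p under 0.1, against 24.8% of all 14936 genes that rose and 26.9% that fell. *Col5a3* (fibrillar) and *Col20a1* (FACIT) fell. Fibrillar collagens had a median log2 fold change of 0.73 against -0.04 over all genes. Basement membrane collagens fell in 3 of 8 with a median of -0.44, and all 8 had a negative log2 fold change.

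*Col1a1*, which encodes the chain that makes up most of type I collagen, had 48.02, 34.3, 28.8 and 26.1 FPKM in the 4 ND libraries of eWAT. It had 177, 92.0, 68.8, 111 and 77.1 FPKM in HFD-fed wild type replicates 1 to 5. Every HFD library lay above every ND library, and replicate 1 was the highest. The change was 1.65 ± 0.34 on the log2 scale (SE), a 3.13-fold rise (adjusted p = 0.00264, edgeR). *Col3a1*, whose protein forms mixed fibrils with type I, had 57.9 to 88.4 FPKM on ND and 302, 173, 120.3, 236 and 119.1 FPKM in HFD-fed wild type replicates 1 to 5. The groups did not overlap and *Col3a1* rose 2.69-fold (log2 1.43 ± 0.33, adjusted p = 0.00437). *Col1a2*, the second chain of type I, rose 2.07-fold (log2 1.05 ± 0.28, adjusted p = 0.00903), and *Col5a2*, a chain of the type V collagen that nucleates fibrils, rose 1.66-fold (log2 0.73 ± 0.25, adjusted p = 0.0305) with overlapping groups.

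*Col5a3*, another type V chain, was the fibrillar collagen that went the other way. It had 108, 89.1, 90.5 and 117 FPKM in the ND libraries and 39.3, 62.3, 48.5, 61.2 and 65.4 FPKM in HFD-fed wild type libraries of eWAT. All HFD-fed libraries lay below all ND libraries, and the fall was 0.83 ± 0.22 on the log2 scale (adjusted p = 0.00903). When the model held the sequencing series, the log2 fold change of *Col5a3* was -0.55 and the adjusted p 0.183. *Col5a1* (log2 0.23 ± 0.22) and *Col27a1* (log2 0.09 ± 0.27) did not pass the test, and their HFD and ND libraries overlapped.

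Among basement membrane collagens the abundant chains differed little with HFD in eWAT. *Col4a1* had 212, 158, 161 and 155 FPKM on ND and 117, 180.4, 119.7, 164 and 134 FPKM in HFD-fed wild type libraries, and the groups overlapped (log2 -0.22 ± 0.24, adjusted p = 0.471). *Col4a2* (log2 -0.27 ± 0.27), *Col15a1* (log2 -0.16 ± 0.18) and *Col18a1* (log2 -0.07 ± 0.23) did not pass either. *Col15a1* and *Col18a1* encode multiplexins, proteoglycan collagens that link basement membrane to the neighbouring matrix.

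The 3 that fell were the minor type IV chains *Col4a3*, *Col4a4* and *Col4a6*. *Col4a3* and *Col4a4* lie head to head on chromosome 1, and their annotated starts are 71 bases apart. The stretch between them is shown because both genes are read outwards from it. It spans chr1:82586850-82586920 (GRCm38.p6, RefSeq), printed on the minus strand so that it runs from the start of *Col4a3* towards that of *Col4a4*. The core promoter elements named next were searched on both strands, and none was in it. Searched first was the TATA box, with the letters TATAAA. Another, bound by the factor NF-Y and known as the CAAT box, was searched with the letters CCAAT. The GC box, an element bound by Sp1, was searched with the letters GGGCGG.
Col4a3 to Col4a4 gap: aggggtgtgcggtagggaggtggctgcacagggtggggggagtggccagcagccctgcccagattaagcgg

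*Col4a4* had 1.66, 1.47, 0.516 and 0.981 FPKM in the ND libraries of eWAT and 0.094, 0.136, 0.221, 0.184 and 0.341 FPKM in HFD-fed wild type libraries. *Col4a3* had 0.233 to 0.752 FPKM on ND and 0.005 to 0.093 FPKM in HFD-fed wild type libraries. Neither gene's groups overlapped. *Col4a4* fell by 2.47 ± 0.39 on the log2 scale (adjusted p = 0.000657) and *Col4a3* fell by 3.02 ± 0.56 (adjusted p = 0.00136). *Col4a4* had the higher FPKM of the pair in every one of the 25 libraries, by 1.22 to 36.8 times. Both are low genes: *Col4a3* had 2 reads in HFD-fed wild type replicate 4. *Col4a3* averaged 2.20 CPM over all eWAT libraries but under 1 CPM over the HFD-fed ones. It was thus tested in eWAT because it was high on ND. *Col4a6*, which lies head to head with *Col4a5* on chromosome X, fell by 1.36 ± 0.45 (adjusted p = 0.0277), and its adjusted p was 0.27 with the sequencing series as a term. *Col4a5* did not pass (log2 -0.62 ± 0.34, adjusted p = 0.156).

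**Figure D2:**
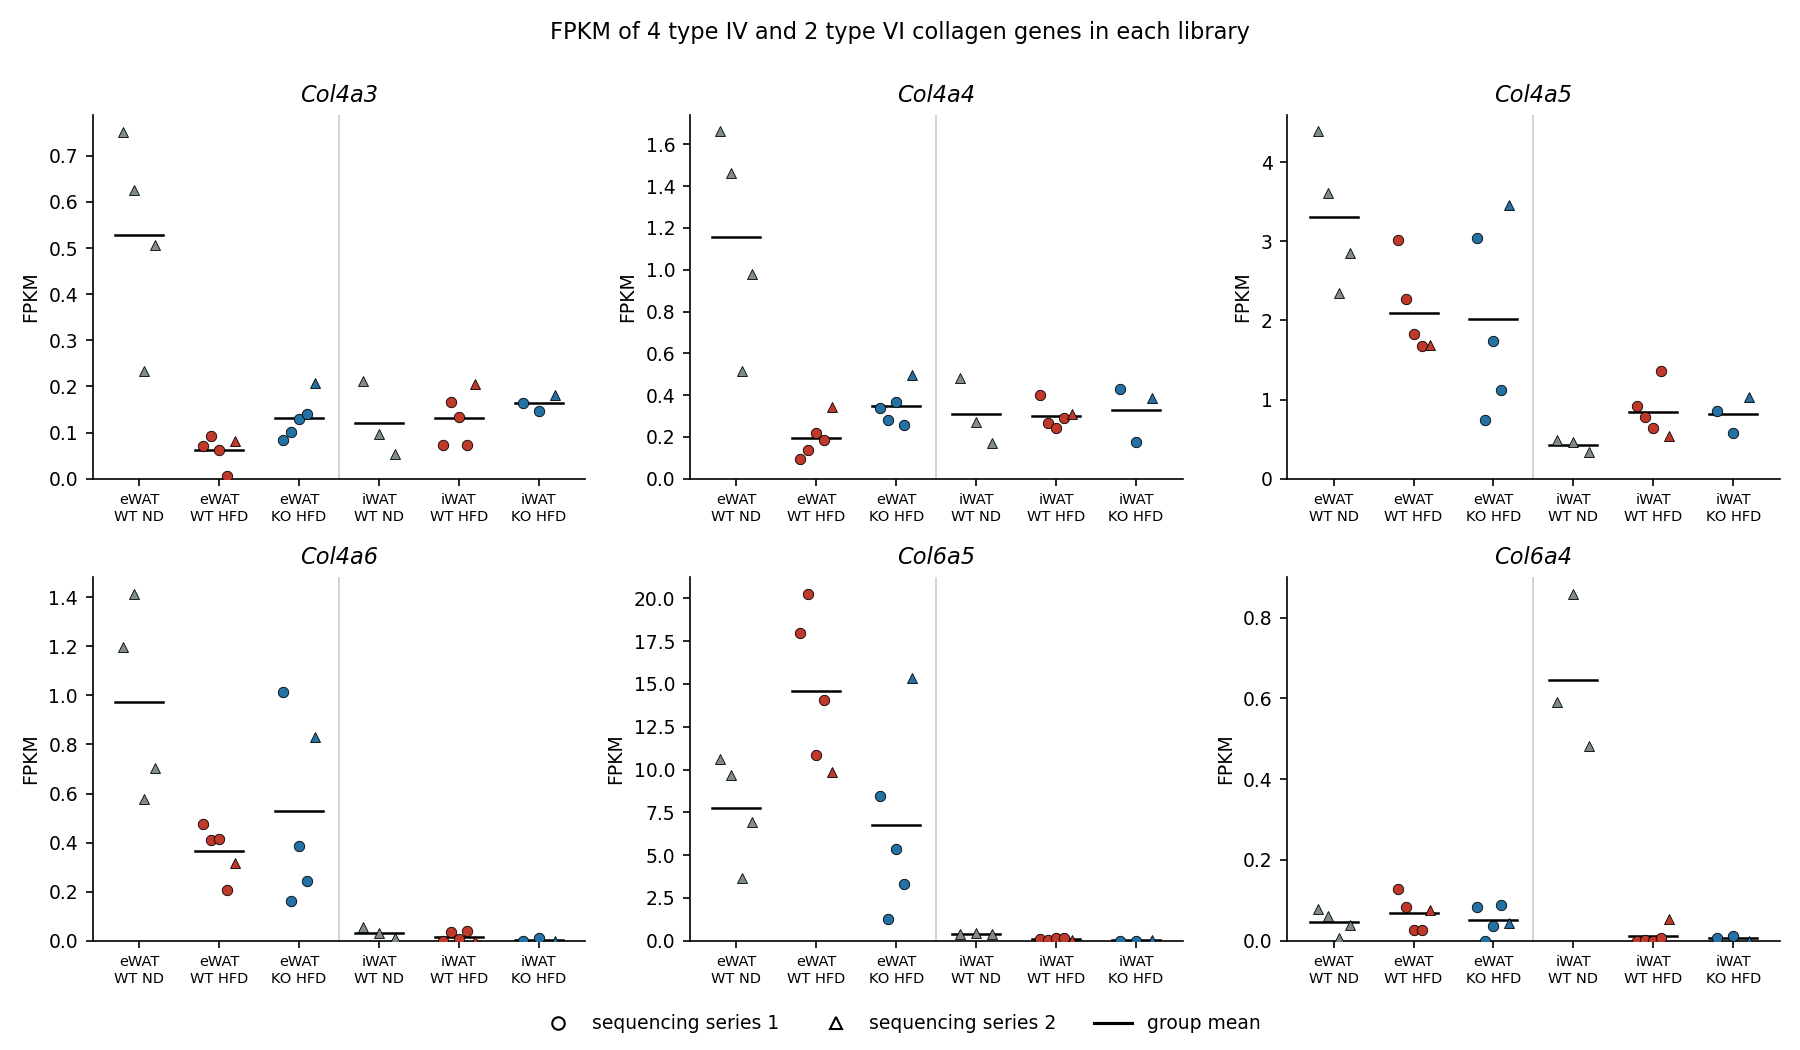
FPKM of *Col4a3*, *Col4a4*, *Col4a5*, *Col4a6*, *Col6a5* and *Col6a4* in each of the 25 libraries, each panel with its own linear axis from 0. Circles are libraries of sequencing series 1, triangles those of series 2, and the line is the group mean. *Col4a3* and *Col4a4* are highest in ND-fed eWAT, *Col4a5*, *Col4a6* and *Col6a5* are higher in eWAT than in iWAT, and *Col6a4* is highest in ND-fed iWAT.

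All 3 chains of the common type VI heterotrimer rose with HFD in eWAT. *Col6a3* had 15.4, 9.38, 9.19 and 9.34 FPKM on ND and 29.0, 28.0, 20.2, 31.2 and 15.5 FPKM in HFD-fed wild type libraries. The lowest HFD-fed library (replicate 5) and the highest ND library (replicate 1) were 15.47 and 15.44 FPKM, so the groups only just parted. *Col6a3* rose 2.35-fold (log2 1.23 ± 0.29, adjusted p = 0.00504), *Col6a2* 2.17-fold (log2 1.12 ± 0.33, adjusted p = 0.0153) and *Col6a1* 1.83-fold (log2 0.87 ± 0.29, adjusted p = 0.0257). The alternative type VI chains *Col6a5* (log2 0.96 ± 0.50, adjusted p = 0.137) and *Col6a6* (log2 0.24 ± 0.30) did not pass.

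Of 4 FACIT members tested in eWAT, 3 rose and *Col20a1* fell. *Col16a1* rose 3.33-fold (log2 1.74 ± 0.54, adjusted p = 0.0193) from 1.47 to 5.64 FPKM on ND to 6.45 to 12.4 FPKM in HFD-fed wild type libraries. *Col12a1*, whose protein bridges neighbouring fibrils, rose 3.07-fold (log2 1.62 ± 0.53, adjusted p = 0.0259), and *Col14a1*, a related bridge, rose 2.25-fold (log2 1.17 ± 0.28, adjusted p = 0.00562). *Col8a1*, a network-forming chain of vessels, had 1.85, 1.09, 0.995 and 0.683 FPKM on ND and 5.77, 3.01, 2.35, 2.98 and 1.77 FPKM in HFD-fed wild type libraries. The rise was 2.81-fold in CPM after TMM scaling (log2 1.49 ± 0.40, adjusted p = 0.01), while in FPKM the lowest HFD library (1.772) was below the highest ND library (1.848). Its partner chain *Col8a2* fell by 1.37 ± 0.54 on the log2 scale (adjusted p = 0.0538), with overlapping groups.

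*Col7a1* and *Col17a1*, collagens of the zone where epithelia are anchored at the basement membrane, fell by 1.83 ± 0.58 and 3.67 ± 1.003 on the log2 scale (adjusted p = 0.0215 and 0.0108). *Col17a1* ranged from 0.086 to 1.63 FPKM over the ND libraries. It reached the filter through the ND group alone (mean 3.19 CPM, against 0.25 CPM or less in both HFD groups), so it was tested because it was high on ND. Not counting it, 7 members fell. The 6 skin and mammary epithelium markers summed to 16.4 to 110.5 FPKM on ND and to 1.51 to 9.89 FPKM in HFD-fed wild type libraries, and 5 of 6 fell. Their part in the falls of *Col7a1* and *Col17a1* was not tested. Without ND replicate 2, which had the highest sum of these markers and 5455 FPKM of epididymis markers, 5 collagens fell in place of 8, against 22.4% of all genes. *Col7a1* and *Col20a1* were no longer called. *Col17a1*, with a mean of 1.07 CPM over all eWAT libraries, dropped below the filter and was not tested there. It was highest in ND replicate 3, with 380 reads against 109 in replicate 2.

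Genes that process collagen and proteoglycans that coat its fibrils were compared in eWAT as well, where 24.8% of all genes rose and 26.9% fell. Of 23 processing genes tested, 12 rose, 2 fell and 9 did not pass. *Pcolce*, which enhances cleavage of the procollagen C-propeptide, rose by 1.58 ± 0.27 on the log2 scale (adjusted p = 0.000935), and *Serpinh1*, the collagen chaperone, rose by 1.30 ± 0.30 (adjusted p = 0.0042). Of 7 fibril-binding proteoglycans 4 rose, with lumican (*Lum*) at 2.67 ± 0.47 (adjusted p = 0.00102). Of 16 basement membrane partners 8 fell and 3 rose, and among those that fell were *Agrn* (log2 -1.35 ± 0.16, adjusted p = 0.000205), *Lama5* (log2 -1.50 ± 0.30, adjusted p = 0.00208) and *Lamb2* (log2 -1.02 ± 0.15, adjusted p = 0.000416), which encode agrin and 2 laminin chains. Of 8 collagen receptors tested 4 rose and 1 fell. Among receptors *Lair1*, carried by leukocytes, rose by 3.49 ± 0.73 (adjusted p = 0.00257).

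Markers of several cell types moved with diet in eWAT as well, where 24.8% of all genes rose and 26.9% fell. Macrophage markers (7 genes, all of them called higher) summed to 197 to 456 FPKM on ND and 609 to 2201 FPKM in HFD-fed wild type libraries. Of 8 fibroblast and progenitor markers 6 rose, from a sum of 307 to 463 FPKM to 447 to 919.5 FPKM. Endothelial markers, of which 4 of 6 fell, summed to 164 to 339 FPKM on ND and 92.0 to 158 FPKM on HFD. Their part in the collagen values was not tested. Because series 2 holds all ND libraries and 1 HFD-fed wild type library of eWAT, series and diet overlap in large part: with series as a term, 13 collagens rose and 3 fell in place of 11 and 8, and *Col4a3* and *Col4a4* were still called. In that fit 17.5% of all genes rose and 16.9% fell, in place of 24.8% and 26.9%.

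**Figure D3:**
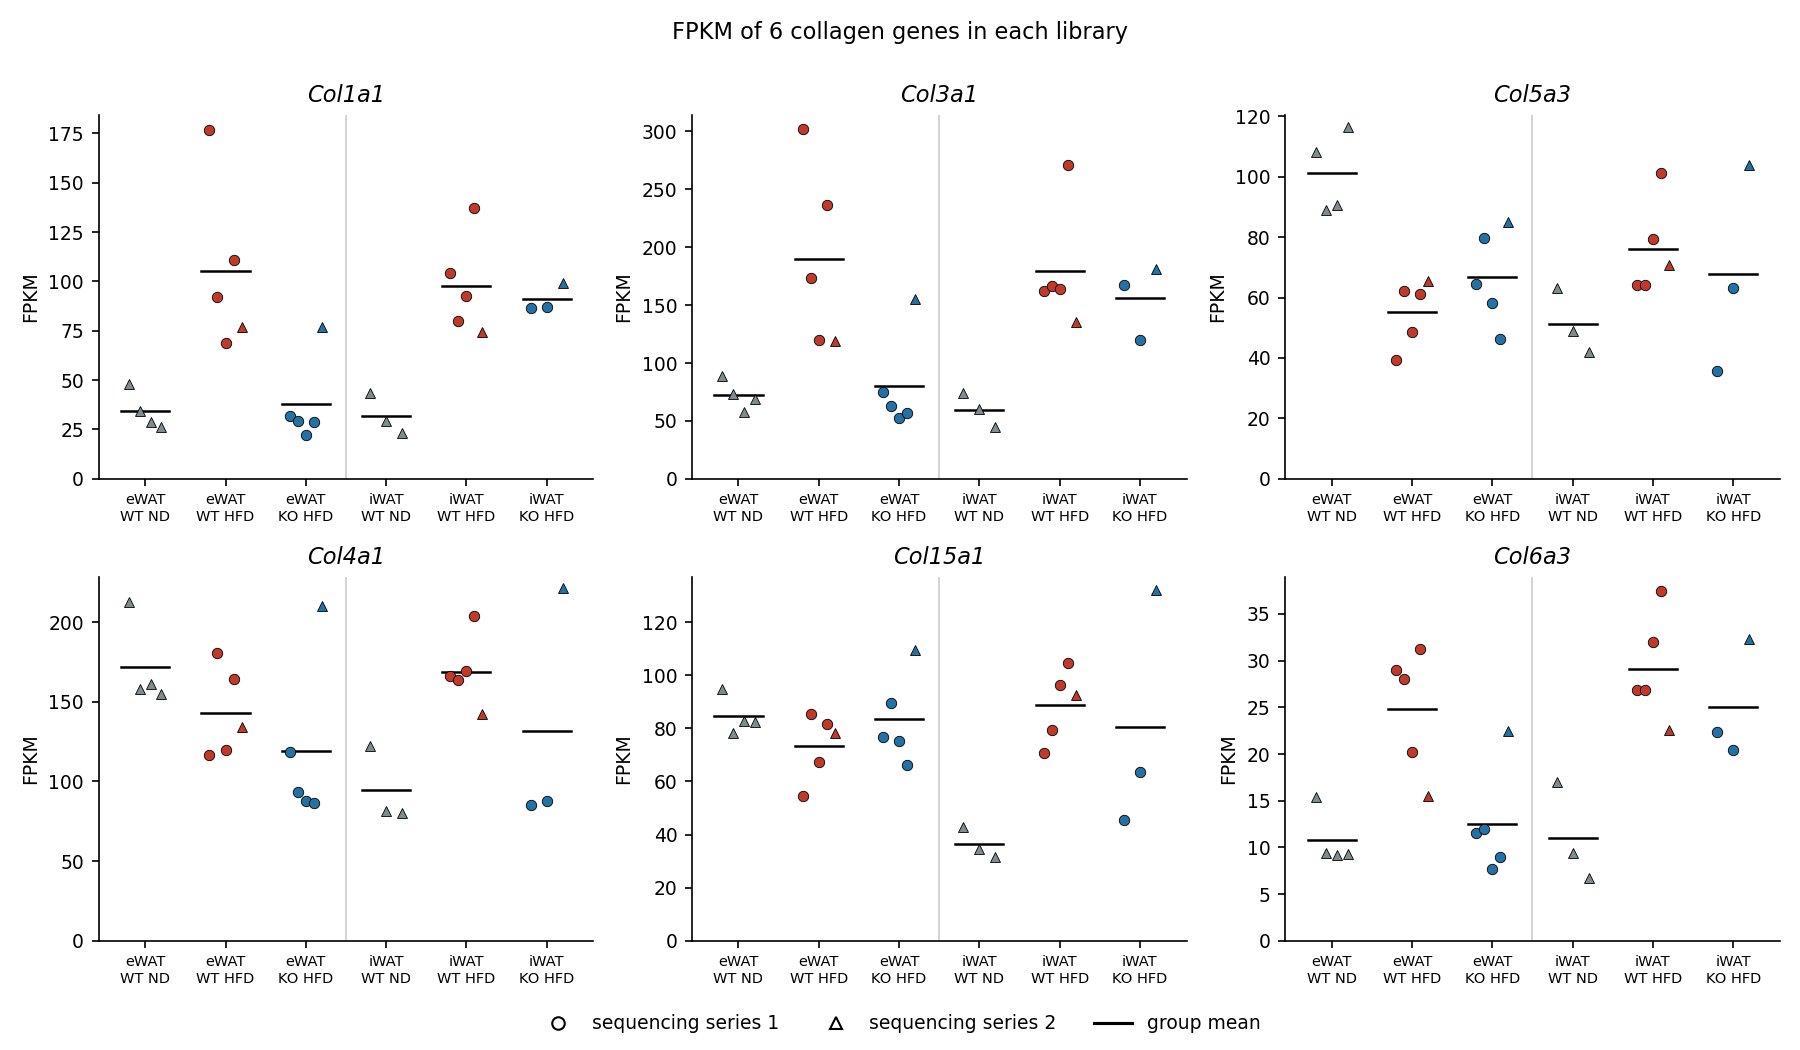
FPKM of *Col1a1*, *Col3a1*, *Col5a3*, *Col4a1*, *Col15a1* and *Col6a3* in each of the 25 libraries, each panel with its own linear axis from 0. Circles are libraries of sequencing series 1, triangles those of series 2, and the line is the group mean. *Col1a1* and *Col3a1* are higher in HFD-fed wild type eWAT than in ND-fed eWAT, while *Col4a1* overlaps between those groups, and *Acod1*-/- replicate 5 is the triangle at the top of its eWAT group.

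The second question was how eWAT of HFD-fed *Acod1*-/- mice differed from that of HFD-fed wild type mice. Of 7 fibrillar collagens 5 were lower in *Acod1*-/- mice, *Col5a1* (log2 -0.36 ± 0.20, adjusted p = 0.265) and *Col5a3* did not pass, and none of 8 basement membrane collagens passed in either direction. Of 30 members tested 8 were lower and none higher, against 10.8% of all genes that were lower and 9.13% that were higher. At an unadjusted p under 0.05 edgeR found 2 members higher, *Col4a3* and *Col4a4*, against 2155 of all 14936 genes. DESeq2 called the same 2 at an adjusted p under 0.1, against 11.8% of all genes. The comparison shares its HFD-fed wild type libraries with the comparison of diets. Fibrillar collagens had a median log2 fold change of -0.82 against 0.04 over all genes. The 8 basement membrane collagens had a median of 0.15 and ranged from -0.19 to 1.16.

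*Col1a1* had 31.7, 29.4, 22.3, 28.7 and 77.1 FPKM in *Acod1*-/- replicates 1 to 5, against 68.8 to 177 FPKM in HFD-fed wild type libraries. Replicates 1 to 4 lay below all wild type libraries and within the ND range or under it, while replicate 5 lay among the wild type libraries. *Col1a1* was 2.61-fold lower in *Acod1*-/- mice (log2 -1.38 ± 0.32, adjusted p = 0.0168, edgeR). *Col3a1* had 74.7, 62.9, 52.6, 56.4 and 155.5 FPKM in replicates 1 to 5 and was 2.22-fold lower (log2 -1.15 ± 0.30, adjusted p = 0.0286). *Col1a2* was 2.11-fold lower (log2 -1.07 ± 0.26, adjusted p = 0.02), *Col5a2* 1.77-fold lower (log2 -0.82 ± 0.23, adjusted p = 0.0381) and *Col27a1* 1.66-fold lower (log2 -0.73 ± 0.26, adjusted p = 0.0797). *Col5a3*, which fell with HFD, had a log2 fold change of 0.36 ± 0.21 here (adjusted p = 0.266).

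Outside the fibrillar class, *Col8a1*, *Col6a3* and *Col14a1* were lower. *Col8a1* had 1.61, 0.321, 0.867, 0.83 and 1.26 FPKM in *Acod1*-/- replicates 1 to 5, all below the lowest HFD-fed wild type library (1.77 FPKM). *Col8a1* was 3.06-fold lower (log2 -1.61 ± 0.37, adjusted p = 0.0174). In CPM after TMM scaling it was the single one of the 8 called members whose groups did not overlap (4.37% of all genes were lower without overlap). In FPKM the groups of *Col27a1* did not overlap either, at 0.31 to 0.423 in *Acod1*-/- and 0.485 to 0.977 in wild type libraries. *Col6a3* was 1.86-fold lower (log2 -0.89 ± 0.27, adjusted p = 0.0467) and *Col14a1* 1.77-fold lower (log2 -0.82 ± 0.26, adjusted p = 0.0557). *Col6a1* (log2 -0.40 ± 0.27), *Col6a2* (log2 -0.43 ± 0.30), *Col12a1* (log2 -0.65 ± 0.48) and *Col16a1* (log2 -1.21 ± 0.49, adjusted p = 0.118) did not pass. In each of the latter 4 genes *Acod1*-/- replicate 5 had the highest FPKM of its group, as for *Col12a1* at 2.52 against 0.318 to 0.721 in the other 4.

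*Col4a1* had 118.8, 93.3, 87.7, 86.5 and 209.9 FPKM in *Acod1*-/- replicates 1 to 5 of eWAT and did not pass (log2 -0.19 ± 0.23, adjusted p = 0.619). *Col4a2* (log2 -0.08 ± 0.25), *Col18a1* (log2 -0.10 ± 0.22) and *Col15a1* (log2 0.27 ± 0.17, adjusted p = 0.309) did not pass either. *Col4a4* had 0.337, 0.279, 0.369, 0.255 and 0.496 FPKM in *Acod1*-/- libraries and 0.094 to 0.341 FPKM in HFD-fed wild type libraries (log2 0.88 ± 0.37, adjusted p = 0.129). The corresponding value for *Col4a3* was 1.16 ± 0.52 (adjusted p = 0.155).

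**Figure D4:**
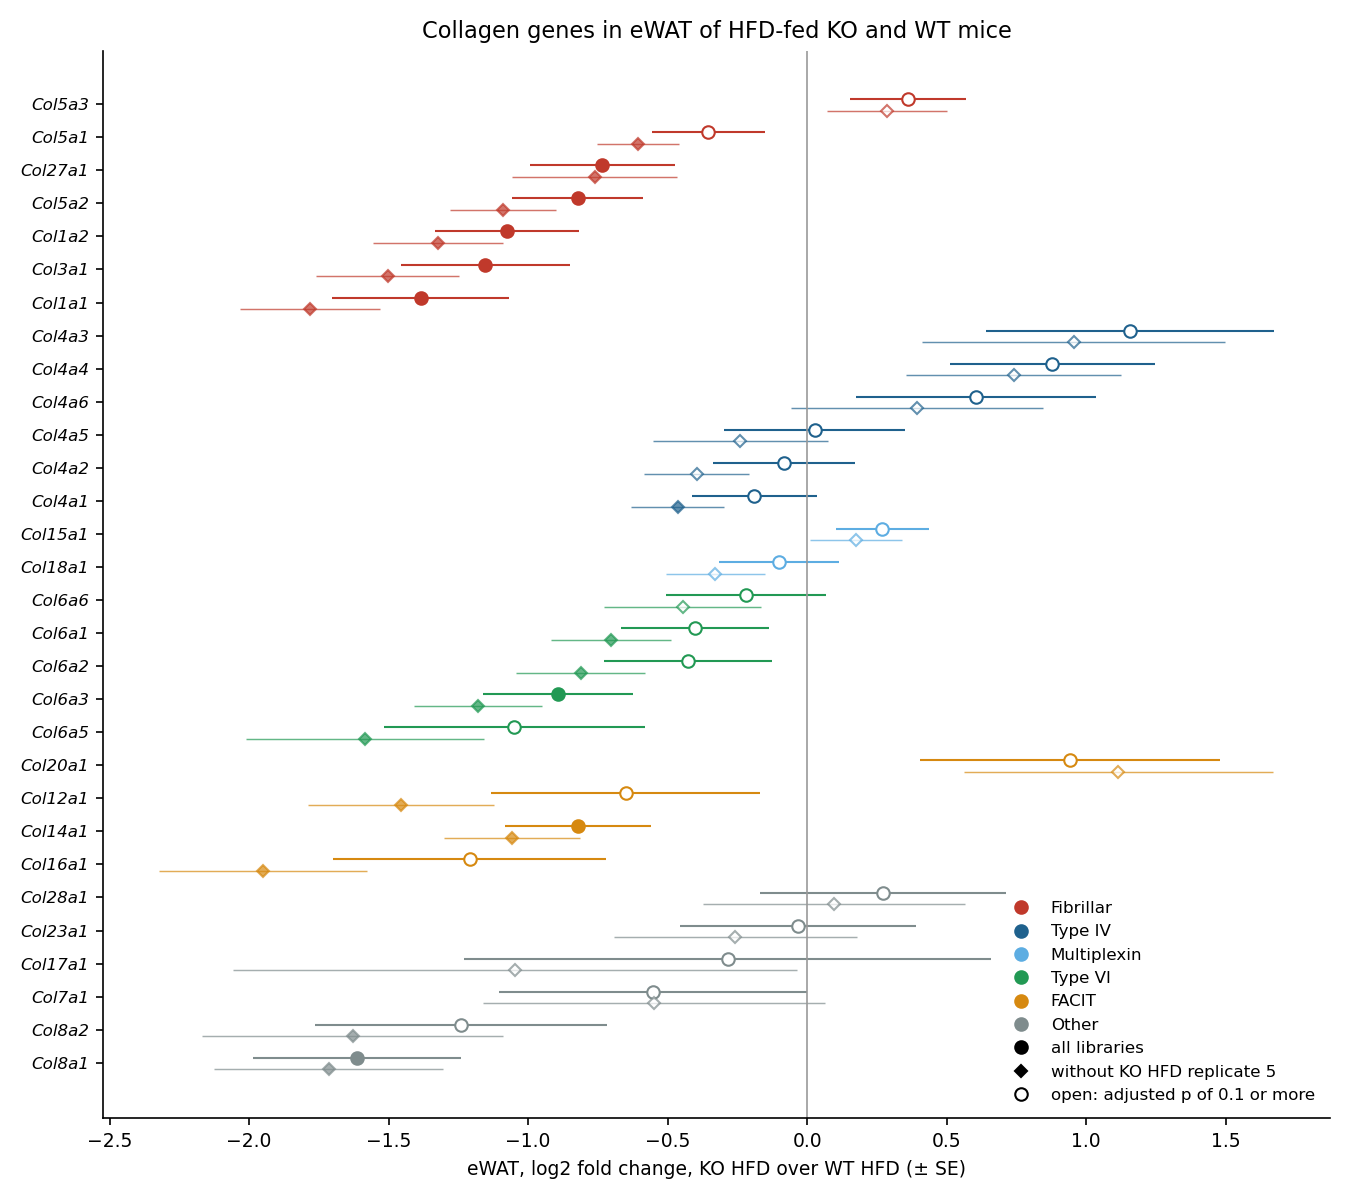
Log2 fold change (± SE) of the 30 tested collagens in eWAT between HFD-fed *Acod1*-/- (KO) and HFD-fed wild type mice, by class, with all libraries (circles) and without *Acod1*-/- replicate 5 (diamonds). Filled symbols have an edgeR adjusted p under 0.1. The *Col1a1* value is -1.38 with all libraries and -1.78 without replicate 5, and type IV values lie on both sides of 0.

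The count of lower collagens in eWAT depended on single libraries. Without *Acod1*-/- replicate 5, 16 of 30 were lower and none higher, while the share of all genes called also grew, to 14.8% lower and 13.5% higher. Among the 16 were *Col16a1* (log2 -1.95), *Col12a1* (log2 -1.46), *Col6a1* (log2 -0.70), *Col6a2* (log2 -0.81) and, of the basement membrane class, *Col4a1* (log2 -0.46, adjusted p = 0.0651). Without wild type replicate 4, *Acod1*-/- replicate 3 or *Acod1*-/- replicate 4 the count was 5, and *Col6a3*, *Col14a1* and *Col27a1* were no longer called. The share of all genes called lower also shrank in these fits, to 7.55%, 7.2% and 7.48% in place of 10.8%. The calls of *Col27a1*, *Col14a1* and *Col6a3* were lost without any 1 of 6, 5 and 3 libraries. That of *Col27a1* was also lost with no filter (adjusted p = 0.107) and with the replicate block (0.104). *Col1a1*, *Col1a2*, *Col3a1*, *Col5a2* and *Col8a1* passed whichever library was left out. Within sequencing series 1 alone (4 against 4) 15 members were lower and 2 higher (*Col4a4* and *Col22a1*), against 14.7% and 11.1% of all genes. *Col22a1*, not tested with all libraries, had 14, 74, 0 and 231 reads in these *Acod1*-/- libraries and 2, 13, 6 and 0 in wild type. It reached the filter through the *Acod1*-/- group, so it was tested because it was high there. Series 2 holds 1 library of each genotype, and there *Col1a1* was 77.1 FPKM in both.

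Of the members that rose with HFD and were lower in *Acod1*-/- mice, 3 have an annotated start that matches a RefSeq promoter window. The 120 bases before these starts are shown to set the upstream sequence of genes with both calls side by side (GRCm38.p6, each on its gene's strand). They are *Col3a1* at chr1:45311418-45311537 (plus strand), *Col6a3* at chr1:90843972-90844091 (minus) and *Col8a1* at chr16:57754738-57754857 (minus). Capitals mark the same boxes on either strand. In these stretches they are the letters of a TATA box in *Col3a1* and of GC boxes on the opposite strand in *Col8a1*. Letters were matched at any position, and the match in *Col3a1* lies at the end of its stretch farthest from the start of the gene. Whether any match is used was not tested.
Col3a1: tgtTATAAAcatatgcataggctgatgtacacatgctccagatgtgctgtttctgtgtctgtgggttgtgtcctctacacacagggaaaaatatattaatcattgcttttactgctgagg
Col6a3: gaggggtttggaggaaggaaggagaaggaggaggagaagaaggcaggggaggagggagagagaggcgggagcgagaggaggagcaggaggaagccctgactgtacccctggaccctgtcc
Col8a1: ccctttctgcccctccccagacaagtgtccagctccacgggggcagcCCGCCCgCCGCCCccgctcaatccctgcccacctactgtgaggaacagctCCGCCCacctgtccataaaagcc
The table holds 38 windows of 300 bases for 35 of the 44 members. Over these windows 13.2% held a TATA box, 34.2% a CAAT box and 60.5% a GC box on either strand, against 13.6%, 37.4% and 35.7% of all 32851 windows.

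Partners of collagen were also compared between genotypes in eWAT, where 10.8% of all genes were lower and 9.13% higher. Of 23 processing genes 5 were lower in *Acod1*-/- mice, with *Pcolce* at -1.33 ± 0.25 on the log2 scale (adjusted p = 0.011), and of 7 fibril-binding proteoglycans 4 were lower, with *Lum* at -2.09 ± 0.42 (adjusted p = 0.0123) and biglycan (*Bgn*) at -1.20 ± 0.24 (adjusted p = 0.0121). *Lamb2* and *Agrn* were the 2 of 16 basement membrane partners that were higher (log2 0.42 ± 0.14 and 0.39 ± 0.15). *Lair1* was the single receptor of 8 that was lower (log2 -3.24 ± 0.66, adjusted p = 0.0127). All 7 macrophage markers were lower, and their sum was 138 to 654 FPKM in *Acod1*-/- against 609 to 2201 FPKM in wild type libraries, with replicate 5 the highest of the *Acod1*-/- group. Of 8 fibroblast and progenitor markers 2 were lower, of 7 adipocyte markers 3 were higher, and no endothelial marker was called. Adipocyte markers summed to 10420 to 11800 FPKM in *Acod1*-/- and 6271 to 12030 FPKM in wild type libraries. The part of these markers in the collagen values was not tested.

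In iWAT the question was again how HFD moved the family in wild type mice. Most fibrillar collagens (6 of 8) and basement membrane collagens (5 of 7) tested there rose. Of 31 members tested 19 rose and 6 fell, against 25.9% and 24.2% of all 14801 genes. The fibrillar *Col11a2* and *Col27a1* fell, and no basement membrane collagen did. The median log2 fold change was 1.49 for fibrillar and 1.16 for basement membrane collagens against 0.00 over all genes.

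*Col1a1* had 43.4, 29.3 and 23.1 FPKM in the ND libraries of iWAT and 104, 79.9, 92.6, 137 and 74.2 FPKM in HFD-fed wild type libraries. The groups did not overlap, and *Col1a1* rose 3.48-fold (log2 1.80 ± 0.24, adjusted p = 0.000304). *Col3a1* rose 3.43-fold (log2 1.78 ± 0.26, adjusted p = 0.000546), *Col1a2* 3.19-fold (log2 1.67 ± 0.26, adjusted p = 0.00071), *Col5a2* 3.12-fold (log2 1.64 ± 0.31, adjusted p = 0.00206) and *Col5a1* 2.54-fold (log2 1.34 ± 0.32, adjusted p = 0.0063). *Col5a3* rose 1.68-fold (log2 0.75 ± 0.31, adjusted p = 0.0723), and left-out libraries gave adjusted p-values up to 0.197.

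*Col4a1* had 122, 81.5 and 80.2 FPKM on ND and 166, 163.5, 169, 204 and 142 FPKM in HFD-fed wild type iWAT. Every HFD library was above every ND library, and *Col4a1* rose 2.02-fold (log2 1.02 ± 0.32, adjusted p = 0.0269). *Col4a2* rose 2.32-fold (log2 1.21 ± 0.35, adjusted p = 0.0165), *Col4a5* 2.23-fold (log2 1.16 ± 0.34, adjusted p = 0.0196), *Col15a1* 2.76-fold (log2 1.47 ± 0.32, adjusted p = 0.00413) and *Col18a1* 3.10-fold (log2 1.63 ± 0.40, adjusted p = 0.00801). *Col4a3* (log2 0.32 ± 0.49) and *Col4a4* (log2 0.17 ± 0.37) did not pass, and *Col4a6* was too low in iWAT to be tested. With series as a term *Col4a5* had an adjusted p of 0.114, and without ND replicate 2 *Col4a1* had one of 0.106.

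The largest rises in iWAT were those of the FACIT collagens. *Col16a1* had 1.58, 1.31 and 0.671 FPKM on ND and 6.95, 6.43, 7.6, 5.77 and 4.17 FPKM in HFD-fed wild type libraries, and it rose 5.95-fold (log2 2.57 ± 0.44, adjusted p = 0.00117). *Col14a1* rose 5.59-fold (log2 2.48 ± 0.39, adjusted p = 0.00078) and *Col12a1* 4.82-fold (log2 2.27 ± 0.67, adjusted p = 0.0194). The groups of all 3 genes did not overlap. *Col6a1*, *Col6a2* and *Col6a3* rose 2.71-, 3.38- and 3.03-fold (adjusted p = 0.00209, 0.00191 and 0.00163), and *Col8a1* 2.49-fold (adjusted p = 0.00961). *Col28a1* rose 2.71-fold (adjusted p = 0.0338) with overlapping groups, and its adjusted p was 0.167 with series as a term.

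The members that fell in iWAT were all low. *Col6a4* had 191, 338 and 178 reads (0.592, 0.859 and 0.483 FPKM) in the ND libraries and 0, 1, 0, 3 and 22 reads in HFD-fed wild type libraries. It fell by 5.39 ± 1.03 on the log2 scale (adjusted p = 0.00211), a value that rests on few reads in the HFD group. *Col6a4* and *Col6a5* reached the filter in iWAT through the ND group alone, with means of 4.99 and 3.53 CPM on ND against at most 0.109 and 0.866 CPM in the other iWAT groups, so they were tested there because they were high on ND. Not counting them, 4 members fell. *Col6a5*, its neighbour on chromosome 9, fell by 2.01 ± 0.80 (adjusted p = 0.0657), and with series as a term the log2 fold change of *Col6a5* was -0.62 and the adjusted p 0.805. *Col11a2*, a fibrillar chain best known from cartilage, had 0.684, 1.19 and 0.65 FPKM on ND and 0.191 or less in HFD-fed wild type libraries and fell by 3.03 ± 0.49 (adjusted p = 0.000906). It averaged 2.25 CPM over all iWAT libraries but under 1 CPM over the HFD-fed ones. *Col11a2*, counted among the 4, was thus also tested because it was high on ND. *Col27a1* fell by 1.23 ± 0.25 (adjusted p = 0.00292), *Col7a1* by 2.55 ± 0.78 (adjusted p = 0.0228) and *Col20a1* by 1.65 ± 0.36 (adjusted p = 0.00429).

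Markers of other tissues were also compared between ND-fed and HFD-fed wild type iWAT. Of lymphocyte, skeletal muscle and skin and mammary epithelium markers, only those of lymphocytes had sums that did not overlap. With HFD 25.9% of all genes rose in iWAT and 24.2% fell. Lymphocyte markers (4 of 4 called lower with HFD) summed to 155 to 235 FPKM on ND and to 1.13 to 15.7 FPKM in HFD-fed wild type libraries. Skeletal muscle markers (5 of 5 lower) summed to 4.74, 123 and 3353 FPKM on ND against 11.5 to 162 FPKM on HFD. Skin and mammary epithelium markers, of which 3 of 6 were lower, summed to 1.53 to 31.0 FPKM on ND against 0.649 to 3.52 FPKM on HFD. Fibroblast and progenitor markers rose in 6 of 8, endothelial markers in 6 of 6, macrophage markers in 5 of 7 and adipocyte markers in 4 of 7. Macrophage markers summed to 262 to 357 FPKM on ND and 211 to 527 FPKM on HFD, and adipocyte markers to 7656 to 8517 and 11410 to 13820 FPKM. The part of these markers in the collagen values was not tested.

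Of 23 processing genes tested in iWAT 15 rose and none fell, against 25.9% and 24.2% of all genes. They were led in adjusted p by *Fkbp10*, a prolyl isomerase of procollagen (log2 1.40 ± 0.14, adjusted p = 9.77e-05). Of 15 basement membrane partners 9 rose and none fell. Nidogen 2 (*Nid2*) rose by 1.58 ± 0.24 (adjusted p = 0.000651) and perlecan (*Hspg2*) by 1.45 ± 0.29 (adjusted p = 0.00278) on the log2 scale. Of 7 fibril-binding proteoglycans 6 rose and *Fmod* fell, and of 9 receptors 6 rose and 1 fell.

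Whether the response to HFD differed between depots was tested as an interaction over all 25 libraries and 15609 genes. The diet effect was lower in eWAT than in iWAT for 11 of 33 members and higher for 4, against 14.5% and 14.2% of all genes. *Col6a4* and *Col11a2*, both among the 4, reached the filter in iWAT only, so they were tested because they were high there. Basement membrane collagens made up 7 of the 11, with *Col4a6* the single member of that class that did not pass. The median difference of log2 fold changes was -1.62 for the 8 basement membrane collagens, -0.44 for 8 fibrillar collagens and -0.04 over all genes.

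For *Col15a1* the log2 fold change was -0.16 in eWAT and 1.47 in iWAT, a difference of -1.58 ± 0.34 (adjusted p = 0.00252). The difference was -1.65 ± 0.45 for *Col18a1* (adjusted p = 0.0116), -1.20 ± 0.40 for *Col4a1* (adjusted p = 0.0367), -1.44 ± 0.44 for *Col4a2* (adjusted p = 0.0242) and -1.74 ± 0.50 for *Col4a5* (adjusted p = 0.0174). In *Col4a3* and *Col4a4* it was -3.29 ± 0.79 and -2.60 ± 0.56 (adjusted p = 0.00527 and 0.00242), and there it was the eWAT side that fell. Among fibrillar collagens it passed for *Col5a3* (-1.53 ± 0.38, adjusted p = 0.00621), called in opposite directions in the 2 depots, for *Col5a1* (-1.08 ± 0.38, adjusted p = 0.0463), and with the other sign for *Col27a1* (1.36 ± 0.39, adjusted p = 0.0175) and *Col11a2* (1.85 ± 0.72, adjusted p = 0.0708). *Col1a1* (-0.11 ± 0.44, adjusted p = 0.892), *Col3a1* (-0.31 ± 0.43) and *Col1a2* (-0.58 ± 0.39) did not pass. With series as a term the same counts, 11 and 4, were obtained (15.2% and 14.6% of all genes), 7 of the 11 being basement membrane collagens. Without ND replicate 2 of iWAT, the adjusted p of *Col4a1* was 0.108, that of *Col5a1* 0.13, that of *Col14a1* 0.142 and that of *Col11a2* 0.207, and *Col6a4* fell below the filter. The call of *Col14a1* (difference -1.27 ± 0.47, adjusted p = 0.0571) was lost without any 1 of 4 libraries, that of *Col11a2* without any 1 of 8, and that of *Col5a1* also without ND replicate 3 of iWAT (0.139).

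**Figure D5:**
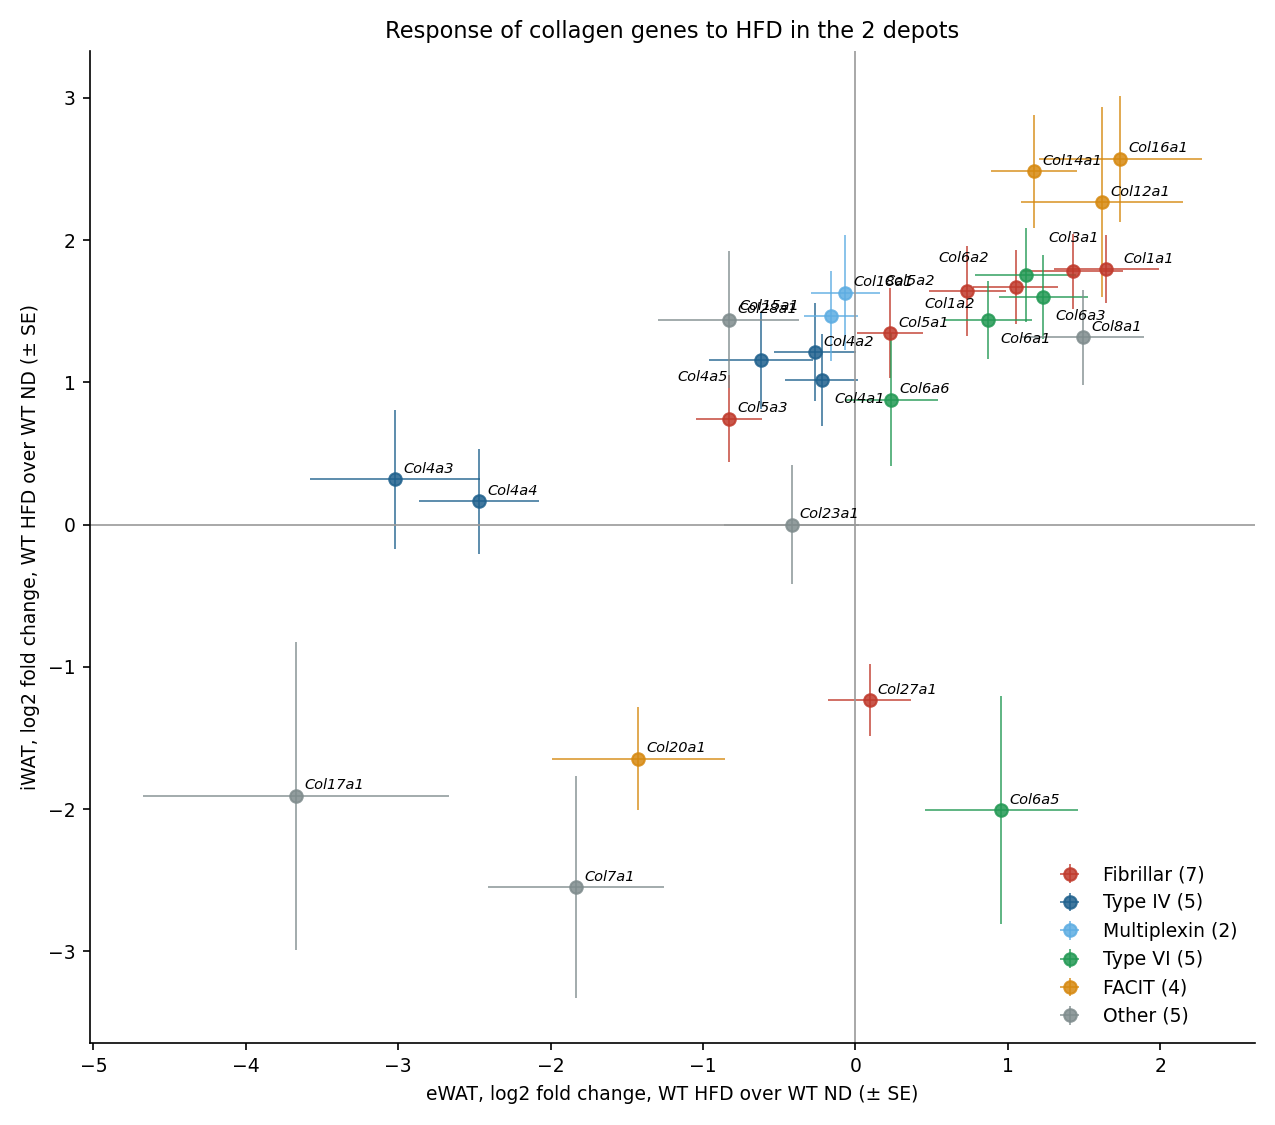
Log2 fold change (± SE) between HFD-fed and ND-fed wild type mice in eWAT (x axis) and iWAT (y axis) for the 28 collagens tested in both depots, coloured by class. *Col1a1* and *Col3a1* lie near 1.4 to 1.8 on both axes, whereas *Col4a1*, *Col4a2*, *Col15a1* and *Col18a1* lie between -0.27 and -0.07 on the x axis and between 1.02 and 1.63 on the y axis.

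In iWAT of HFD-fed mice no member passed the test between *Acod1*-/- and wild type mice, and neither did any of the 14801 genes (0%). Unadjusted p-values under 0.05 were found for 3 higher and 4 lower members, and for 1062 higher and 1406 lower genes of all. DESeq2 called *Col20a1* higher (log2 1.26) and *Col16a1* lower (log2 -1.46), against 2.97% and 4.27% of all genes. *Col1a1* had 86.5, 87.1 and 99.1 FPKM in *Acod1*-/- libraries against 74.2 to 137 FPKM in wild type libraries, with a log2 fold change of -0.09 ± 0.22. *Col4a1* had 85.3, 87.4 and 222 FPKM in *Acod1*-/- replicates 1 to 3 against 142 to 204 FPKM in wild type libraries. The first 2 lay below all wild type libraries and replicate 3, from sequencing series 2 and labelled 18 weeks, lay above them all. *Col15a1* showed the same order, with 45.5, 63.6 and 132 FPKM against 70.6 to 105 FPKM.

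Without *Acod1*-/- replicate 3 of iWAT, 11 collagens were lower and 4 higher, against 8.5% and 9.43% of all 14851 genes in that fit. The lower ones included *Col4a1* (log2 -0.95, adjusted p = 0.0233), *Col4a2* (log2 -1.05, adjusted p = 0.0163), *Col15a1* (log2 -0.68, adjusted p = 0.0572), *Col12a1* (log2 -3.00, adjusted p = 0.0154) and *Col16a1* (log2 -2.13, adjusted p = 0.0174). In that fit *Col1a1* and *Col3a1* were not called. Within series 1 alone (2 against 4) 12 were lower and 1 higher, against 7.84% and 7.11% of all genes. Leaving out both libraries labelled 17 and 18 weeks, an alternative chosen after the data were seen, left 1 *Acod1*-/- library, assumed to vary like the other groups, with 7 lower and 1 higher, against 4.84% and 4.65% of all genes. With all libraries, the effect of genotype did not differ between depots for any of 33 members by edgeR, against 0.00641% of all genes (1 gene, lower in eWAT). At an unadjusted p under 0.05, 4 members were lower, against 968 of all 15609 genes. *Col1a1* had the lowest p of the 33 (difference -1.33 ± 0.42, adjusted p = 0.318), and without *Acod1*-/- replicate 5 of eWAT its adjusted p was 0.0721.

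Depots were also compared within each diet and genotype. On ND, 18 of 33 members were higher in eWAT and 3 in iWAT, against 18.3% and 14.1% of all genes, and all 8 basement membrane collagens were among the 18. This fit kept genes with a mean of 1 CPM in either depot. *Col6a4* and *Col11a2*, called higher in iWAT, reached it there only (1.56 and 2.25 CPM, against 0.473 and 0.792 CPM in eWAT). *Col4a6* and *Col8a2*, called higher in eWAT, reached it there only (4.76 and 2.44 CPM, against 0.140 and 0.216 CPM in iWAT). These genes were tested because they were high in 1 depot. Without ND replicate 2 of iWAT *Col4a1* and *Col4a2* were no longer called there, nor was *Col4a1* without ND replicate 3. In HFD-fed wild type mice 7 were higher in eWAT and none in iWAT (11.3% and 7.02% of all genes). No fibrillar collagen passed there, and their log2 differences lay between -0.47 and 0.12. At an unadjusted p under 0.05 edgeR found 3 of 33 members higher in iWAT, against 1707 of all 15609 genes. DESeq2 called 2 at an adjusted p under 0.1, against 9.12% of all genes. In HFD-fed *Acod1*-/- mice 4 were higher in eWAT and 4 in iWAT (2.25% and 1.97% of all genes), the latter being *Col1a1* (log2 -1.26 ± 0.32, adjusted p = 0.0371), *Col6a3*, *Col11a2* and *Col27a1*. Without *Acod1*-/- replicate 2 of iWAT none of the 4 was called (0.481% of all genes were higher in iWAT), and *Col1a1* had an adjusted p of 0.121. The calls of *Col6a3*, *Col11a2* and *Col27a1* were lost without any 1 of 15, 5 and 4 libraries.

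*Col4a5*, *Col4a6*, *Col6a5* and *Col6a6* were higher in eWAT in all 3 groups. In *Acod1*-/- mice the call of *Col4a5* (adjusted p = 0.0774) was lost without any 1 of 4 libraries (adjusted p = 0.158 to 0.343), with no filter (0.124) and with the replicate block (0.128). *Col6a5*, a type VI chain, had 3.68 to 10.6, 9.84 to 20.3 and 1.26 to 15.4 FPKM in the ND, HFD-fed wild type and *Acod1*-/- libraries of eWAT and at most 0.465 FPKM in any iWAT library. Its log2 difference was 4.29 ± 0.69 on ND (adjusted p = 0.000132) and 7.30 ± 0.64 in HFD-fed wild type mice (adjusted p = 3.15e-07). *Col6a6*, the next gene on chromosome 9, had 1.10 to 4.2 FPKM in eWAT and at most 0.555 FPKM in iWAT, with a log2 difference of 3.56 ± 0.47 on ND (adjusted p = 1.41e-05). *Col4a6* had 0.164 to 1.41 FPKM in eWAT, at most 17 reads in an iWAT library, and 0, 3 and 0 reads in *Acod1*-/- iWAT. *Col4a5*, its partner on chromosome X, had 0.744 to 4.4 FPKM in eWAT and 0.337 to 1.36 FPKM in iWAT (log2 3.01 ± 0.42 on ND, adjusted p = 2.89e-05). *Col8a2* was 22.8-fold higher in eWAT on ND (log2 4.51 ± 0.95, adjusted p = 0.00158) and 7.98-fold higher in HFD-fed wild type mice. *Col4a6* and *Col8a2* reached the filter in eWAT only, so they were tested because they were high there.

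*Col6a4*, the third of the type VI genes clustered on chromosome 9, was the opposite case. On ND it was higher in iWAT (log2 -3.73 ± 1.11 for eWAT over iWAT, adjusted p = 0.0169), and on HFD it did not pass in either genotype. *Col6a4* reached the filter in iWAT only, so it was tested because it was high there. Mesothelial markers, typical of the lining of visceral fat, summed to 13.7 to 57.3 FPKM in eWAT and to at most 4.16 FPKM in iWAT. Their part in the depot differences was not tested.

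Ratios between chains of one collagen were followed within each library. *Col4a1* over *Col4a2* in FPKM ranged from 1.15 to 1.49 across all 25 libraries, and *Col6a1* over *Col6a2* from 1.31 to 2.11. *Col1a1* over *Col1a2* ranged from 0.876 to 2.11. In eWAT it was 0.876 to 0.989 on ND, 1.29 to 1.6 in HFD-fed wild type and 0.901 to 1.51 in *Acod1*-/- libraries, so the ND and HFD-fed wild type libraries did not overlap. The listed cDNA length of *Col1a2* is 12426 bases against 6563 for *Col1a1*, and the same lengths apply in every library. *Col3a1* over *Col4a1*, chains of different collagens, ranged from 0.359 to 2.58. No test was made of these ratios.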

How the data were processed

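RNA-seq libraries of eWAT (14) and iWAT (11) had been made from mRNA with a directional kit. Per the submitters' processing notes cutadapt, STAR and bedtools were used with the mm10 genome. The authors deposited, for each gene, raw counts of uniquely aligned reads and FPKM values. The counts were tested, and the deposited FPKM relative to reads counted on genes were used for levels per length. The program settings for strand are not given in the sources used here. The 29 of 54752 gene IDs without a symbol could not be matched to the rule.

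Groups were taken from the labels. Counts were fitted per depot (3 groups) with edgeR 4.0.16 (R 4.3.3), TMM scaling and the quasi-likelihood test, keeping genes whose mean reached 1 CPM, and p-values were adjusted by Benjamini-Hochberg over all genes. Calls were made below an adjusted p of 0.1. Depots and interactions were tested in 1 fit of all 6 groups, which kept genes with a mean of 1 CPM in either depot. No model was fitted to FPKM. DESeq2 1.42.0, other filters and scalings, the sequencing series, a replicate block and each library left out in turn were tried as alternatives. The fitting code was tested on simulated data. Sequences were read from RefSeq tables on GRCm38.p6. Tables were handled with pandas 2.3.3, and figures were drawn with matplotlib 3.10.9.

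The members, their classes and the lists of partners and markers were chosen with earlier results of these data known. Values in each library were given for the most abundant members of each class, for the 3 called members with the lowest adjusted p in each comparison and direction, and for members called in opposite directions. Others named were chosen to complete a class.

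Depth was 31.41 to 52.34 M counted reads per library. Counts under about 3 reads carry little information on level. Labels give groups in part the same replicate numbers, and the correlation of deviations from group means between same-numbered libraries was -0.302 to 0.321 within depots and -0.072 to 0.468 between depots, so the numbers were not taken to pair samples.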

Additional observations from a re-analysis of the deposited data

Results flagged for a closer look

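For 27 members the highest and lowest library of each group of 4 or 5 was compared with its nearest neighbour. Among 108 such groups 14 held a library that stood apart by Dixon's criterion, where chance alone marks about 1 in 20. The same libraries recur for each gene, so the 108 are not independent and their count cannot be set against that rate. Of the 14, 8 were *Acod1*-/- replicate 5 of eWAT. Its FPKM was 156 for *Col3a1* (next highest 74.7), 77.1 for *Col1a1* (31.7), 210.0 for *Col4a1* (118.8), 34.5 for *Col18a1* (20.03), 22.5 for *Col6a3* (11.99), 10.6 for *Col16a1* (3.54), 2.52 for *Col12a1* (0.721) and 22.1 for *Col5a2* (11.8). The report gives the comparison of genotypes with and without this library.

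ND replicate 1 of eWAT stood apart for *Col4a1* (212 FPKM, next 161) and *Col6a3* (15.4 FPKM, next 9.38). In HFD-fed wild type iWAT, replicate 4 stood apart for *Col3a1* (271 FPKM, next 167), replicate 2 for *Col8a1* (2.02 FPKM, next 1.47), replicate 1 for *Col11a2* (0.191 FPKM, next 0.083) and replicate 5 for *Col6a4* (0.053 FPKM, next 0.008).

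The effect of HFD differed between depots by an interaction test in 14 of the members followed. Of all genes 14.5% were called lower and 14.2% higher in that test. As log2 differences (eWAT effect minus iWAT effect) these were -3.29 for *Col4a3*, -2.60 for *Col4a4*, -2.23 for *Col28a1*, -1.74 for *Col4a5*, -1.65 for *Col18a1*, -1.58 for *Col15a1*, -1.53 for *Col5a3*, -1.44 for *Col4a2*, -1.27 for *Col14a1* and -1.20 for *Col4a1*. With the other sign they were 1.36 for *Col27a1*, 1.85 for *Col11a2*, 3.01 for *Col6a5* and 6.04 for *Col6a4*. Leaving out ND replicate 2 of iWAT ended the call of *Col4a1*, and leaving out any 1 of 4 libraries that of *Col14a1* and any 1 of 8 that of *Col11a2*. The value of *Col6a4* rests on HFD-fed iWAT libraries with 0 to 22 reads. *Col6a4* and *Col11a2* reached the filter in iWAT only.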

How the results depend on the processing

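Of 92 gene results on 26 members, none reversed under any alternative, 67 were called under every alternative that gave a value and 25 lost their call under at least 1. Counts of members called moved as follows, and the cause was not tested except where the alternative itself removes genes or libraries. Requiring 1 CPM in every library, which removes low genes, left 3 in place of 8 lower with diet in eWAT, 1 in place of 6 lower with diet in iWAT, 1 in place of 3 lower in eWAT than iWAT on ND, and 2 in place of 4 higher in the diet by depot test. The shares of all genes were 27.1%, 26.4%, 13.8% and 14.8% in that order. With series as a term 3 were lower with diet in eWAT (16.9% of all genes) and 1 was higher by genotype in eWAT (8.22%). With DESeq2 2 were higher by genotype in eWAT (11.8% of all genes), 1 higher and 1 lower by genotype in iWAT (2.97% and 4.27%), and 2 lower in eWAT than iWAT in HFD-fed wild type mice (9.12%). Without a filter the latter count was 1 (1.94% of all genes), 1 member was higher by genotype in eWAT (3.26%), and 1 in place of 4 was lower in eWAT than iWAT in *Acod1*-/- mice (0.623%), as at an adjusted p under 0.05 (1 member, 1.06% of all genes). Fitting only the groups compared gave 1 higher by genotype in eWAT (6.32% of all genes). Series 1 alone gave 2 higher and 15 lower by genotype in eWAT (11.1% and 14.7% of all genes), and 1 higher and 12 lower in iWAT (7.11% and 7.84%). *Col22a1*, 1 of the 2 higher in eWAT, was tested because it was high in *Acod1*-/- libraries. Leaving out the libraries labelled 17 and 18 weeks, added after the data were seen, gave 1 higher and 7 lower in iWAT.

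Leaving out each library in turn gave 5 to 10 lower with diet in eWAT, 0 to 1 higher and 5 to 16 lower by genotype in eWAT, and 0 to 4 higher and 0 to 11 lower by genotype in iWAT. The shares of all genes were, in that order, 22.4% to 27.9%, 4.71% to 13.5%, 6.74% to 14.8%, 0% to 9.43% and 0% to 8.5%. For eWAT against iWAT leaving out each library gave 0 to 2 lower in HFD-fed wild type and 0 to 6 lower in *Acod1*-/- mice, 2 to 4 higher for diet by depot, and 0 to 1 higher and 0 to 2 lower for genotype by depot. The shares of all genes were, in that order, 4.07% to 7.95%, 0.481% to 3.47%, 10.3% to 14.9%, 0% to 1.02% and 0.00639% to 1.46%. Without *Acod1*-/- replicate 5 of eWAT *Col1a1* and *Col3a1* were the 2 lower by genotype and depot (1.24% of all genes).

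With the replicate number as a block, which the data did not support as a pairing, 3 members (*Col1a1*, *Col1a2* and *Col3a1*) were lower for genotype by depot and 2 were lower in eWAT than iWAT in HFD-fed wild type mice. The shares of all genes were 2.16% and 10.1%. Each of the 3 ND libraries of eWAT with a numbered counterpart in iWAT correlated best with its own number, as a hint from the data and not the design. Classes summed as CPM in place of FPKM moved by less than the spread between libraries. Depth limits the members with few reads, such as *Col4a3*, *Col4a6* in iWAT and *Col6a4*.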
